A study of Mus musculus with 16 samples.

Results

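A set of 9 genes that carry cholesterol into, through and out of liver cells was followed here. They were taken by exact gene symbol out of the 25803 genes in the deposited tables. No measured value entered that rule, but the set was chosen with earlier results of these data known. They are the uptake receptors Scarb1, Lrp1 and Vldlr, the ATP-binding cassette efflux transporters Abca1, Abcg1, Abcg5 and Abcg8, and the late endosomal and lysosomal cholesterol carriers Npc1 and Npc2. The libraries were bulk RNA sequencing of whole liver from male mice (Mus musculus) kept on a high-fat diet for 12 weeks. All 4 groups shared that diet, and each held 4 libraries. They were Control and LKO mice killed after a 16 h fast, and Control and LKO mice killed after a 16 h fast and 6 h of refeeding. LKO is the knockout of Cpt1a in the liver, and the series' design text calls the controls wild type. The agent that deleted the gene, and the strain and age of the mice, are not given in the sources used here. The labels number the libraries of a group from 1 to 4 without saying that each is a separate mouse, so p-values measure the spread between these libraries, some of which may be technical.

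Cholesterol reaches a hepatocyte inside lipoproteins. The scavenger receptor SR-BI, the product of Scarb1, takes cholesteryl ester selectively from high-density lipoprotein (HDL), whereas endocytic receptors such as LRP1 and the VLDL receptor take up whole particles by endocytosis. Inside the late endosome NPC2 and NPC1 pass free cholesterol on to the rest of the cell, and it leaves the liver through ABCA1 and ABCG1 to HDL or through the ABCG5/ABCG8 heterodimer into bile. Several of the transporter genes are textbook targets of the oxysterol receptors LXR.

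Library totals ran from 14721601 to 24618230 counts, and all 9 genes passed the filter on low counts that left 14488 genes for testing. Counts were scaled to CPM (counts per M, or mega, counts of the library total) with edgeR's TMM factors, and a gene was called when edgeR's quasi-likelihood test gave a Benjamini-Hochberg adjusted p under 0.05 over those 14488 genes. Cpt1a, which encodes the carnitine palmitoyltransferase of the outer mitochondrial membrane, followed the labels: it measured 487 ± 83.2 CPM (SD, n = 4) in fasted control and 101 ± 17.3 in fasted LKO, and 457 ± 137 in refed control and 54.2 ± 16.6 in refed LKO. The summed level of 8 hepatocyte markers (Alb, Ttr, Apob, Cps1, Hnf4a, Tat, Fgb and Serpina1c) was between 45260 and 81250 CPM in every library. One refed control library, S49, stood apart in 8 Kupffer cell markers, whose sum was 824 CPM there. The next highest library, S48 of the same group, held 536 CPM.

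Divided by the gene lengths in the deposited tables, the 9 genes spanned a wide range of levels. Lrp1 was the highest, with 40.8 CPM per kb as the mean of the 16 libraries, followed by Abcg5 with 32.8, Abcg8 with 27.1 and Scarb1 with 25.4. Npc2 lay at 13.5, Abca1 at 7.15 and Npc1 at 6.14 CPM per kb. Abcg1 at 1.16 and Vldlr at 0.276 CPM per kb closed the order. The deposited lengths, such as 5438 bases for Npc2 and 2712 for Abcg5, may differ from those of the transcripts expressed in liver. The order depends on these lengths, and other lengths were not tried. Some neighbours in that order were not separated within libraries. Lrp1 lay above Abcg5 in 12 of 16 libraries, Abcg8 above Scarb1 in 10 and Abca1 above Npc1 in 12, while each of the other 5 steps held in all 16 libraries.

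**Figure D1:**
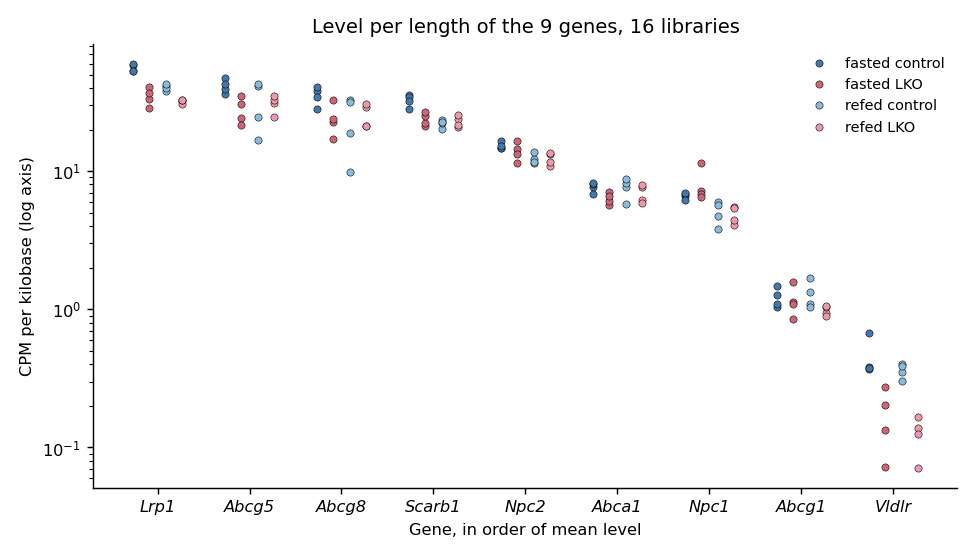
Level of each of the 9 genes in CPM per kb of the deposited gene length on a logarithmic axis, with one point for each of the 16 libraries, coloured by group, and the genes in order of their mean. With these lengths Lrp1, Abcg5, Abcg8 and Scarb1 form the upper set, and Abcg1 and Vldlr lie below every other gene in all libraries.

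The uptake receptors held every change of the 9 genes with genotype that passed the test. In the fasted state all 3 receptors fell in LKO liver and none of the other 6 genes was called. These 3 lower calls among 9 genes stand beside 6.48% of all tested genes called lower, and 12.2% called in either direction. The median log2 fold change of the 9 genes was −0.46, and that of all tested genes was 0.02. Groups did not overlap for 4 of the 9 genes (the 3 receptors and Abcg5), against 16.9% of all tested genes. In the refed state Vldlr alone was called, and it was lower, beside 1.35% of all genes called lower and 3.63% called in either direction. The refed groups did not overlap for Lrp1 and Vldlr, 2 of the 9 genes, against 11.7% of all genes.

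**Figure D2:**
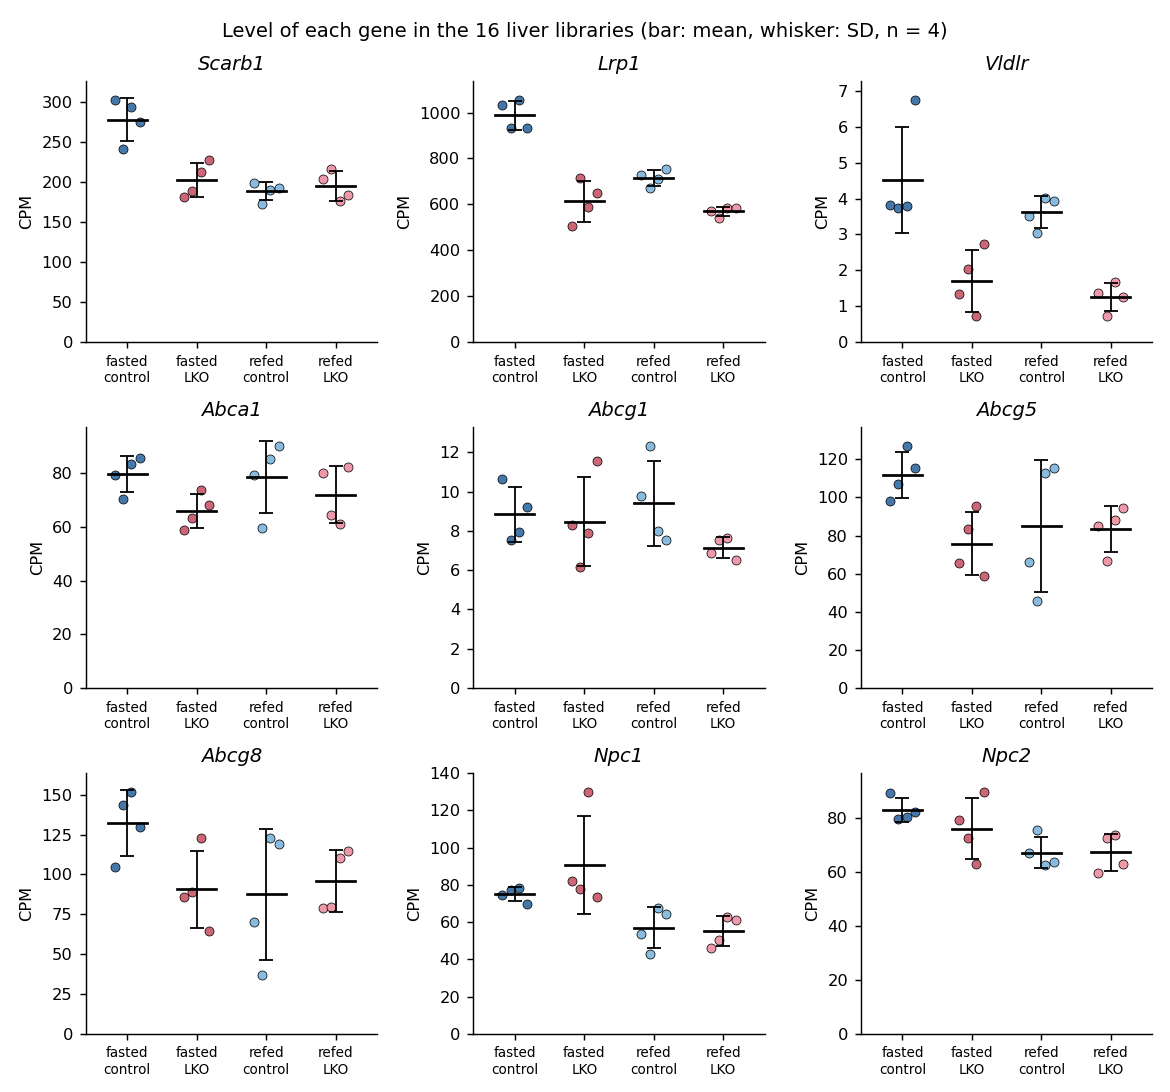
CPM of each of the 9 genes in every library, by group (fasted control, fasted LKO, refed control, refed LKO), with the mean and SD of each group of 4 and a separate axis from 0 for each gene. Lrp1 and Vldlr are lower in all LKO libraries than in any control library of the same feeding state, whereas Scarb1 is separated by genotype only among the fasted libraries.

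Scarb1 (ENSMUSG00000037936, chr5:125354151-125418158, minus strand, in the mm39 coordinates of the deposited tables) was highest in the fasted control. Its 4 fasted control libraries measured 302, 241, 293 and 275 CPM, and the 4 fasted LKO libraries 181, 188, 212 and 228. Every fasted control library therefore lay above every fasted LKO library. Scarb1 fell to 72.9% of the control level, with a 95% confidence interval of 63.1 to 84.1% (log2 fold change −0.46, SE 0.10, edgeR adjusted p = 0.00652).

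After refeeding the genotypes overlapped. Refed control libraries held 199, 173, 190 and 192 CPM of Scarb1, and refed LKO libraries 204, 217, 176 and 184. The refed libraries of both genotypes thus sat at the level of the fasted LKO. The genotype difference in the refed state had a log2 fold change of 0.05, with a 95% confidence interval of −0.16 to 0.26 (edgeR adjusted p = 0.841). Refeeding lowered Scarb1 in the control, to 67.9% of the fasted level (log2 fold change −0.56, SE 0.10, edgeR adjusted p = 0.00187), and the fasted and refed control libraries did not overlap. In LKO liver the refeeding difference was −0.05 on the log2 scale, with an interval of −0.26 to 0.15 (edgeR adjusted p = 0.761). Between the 2 feeding states the genotype effect differed by 0.51 (SE 0.14), with an unadjusted p of 0.00199 that did not pass after adjustment over all genes (edgeR adjusted p = 0.0865). DESeq2 gave that difference an adjusted p of 0.0161.

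Lrp1 (ENSMUSG00000040249, chr10:127374030-127457017, minus strand) encodes the large endocytic receptor that clears chylomicron and VLDL remnants together with many other ligands. Fasted control libraries measured 1034, 934, 1053 and 934 CPM, and fasted LKO libraries 506, 716, 588 and 647. The lowest control library exceeded the highest LKO library by a clear margin. Lrp1 fell to 62.1% of the control level, with a 95% confidence interval of 53.9 to 71.6% (log2 fold change −0.69, SE 0.10, edgeR adjusted p = 4.65e-04).

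In the refed state the same order held with a smaller gap. Refed control libraries held 728, 672, 712 and 755 CPM of Lrp1, and refed LKO libraries 570, 540, 584 and 583. The refed LKO libraries again all lay below the refed control libraries, at 79.4% of their level (interval 69.0 to 91.5%). That difference (log2 fold change −0.33, SE 0.10) missed the threshold over all genes with an edgeR adjusted p of 0.0655. It passed with DESeq2 (adjusted p = 0.0150), with edgeR fitted to the refed libraries alone (adjusted p = 0.0482) and in the authors' deposited table (adjusted p = 1.14e-04). Refeeding lowered Lrp1 in control liver to 72.5% of the fasted level (log2 fold change −0.46, SE 0.10, edgeR adjusted p = 0.00525). In LKO liver the refeeding difference was −0.11, with an interval of −0.31 to 0.09 (edgeR adjusted p = 0.477), and the difference between the genotype effects was 0.35 (SE 0.14, edgeR adjusted p = 0.199).

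Scarb1 and Lrp1 moved in bulk tissue, where fewer cells of a type and less RNA per cell cannot be told apart. The summed hepatocyte markers were also lower in fasted LKO (45260 to 59900 CPM) than in fasted control (61800 to 68150 CPM). Alb made up most of these sums, and its own difference (−0.29) was not called (edgeR adjusted p = 0.135). Of the 8 log2 fold changes 7 were below 0, and 1, that of Apob (0.18), was above 0. Those of Ttr, Fgb and Serpina1c, 3 of the 8, were called lower. In the refed groups the sums ranged from 63120 to 81250 CPM in control and from 51290 to 64180 in LKO. The sum of 7 lymphocyte markers moved the other way, with 5.13 to 9.29 CPM in fasted control against 15.0 to 33.8 in fasted LKO. After refeeding it was 3.66 to 6.77 against 17.4 to 39.9 CPM. Cd4, one of them, was lower in LKO, with means of 1.04 against 2.21 CPM fasted and 1.28 against 1.64 CPM refed. Of the 6 tested only Jchain, the immunoglobulin joining chain gene, was called with genotype by edgeR. It was higher in both states and made up most of the LKO sums, and none of the other 6 passed 2.98 CPM in any library. DESeq2 also called Cd4 lower in the fasted comparison and Cd8a higher in the refed comparison. Over the 16 libraries the log2 sum had an r of −0.31 with Scarb1, −0.63 with Lrp1 and −0.76 with Vldlr. After removal of the group means these were −0.04, 0.47 and 0.10. The part of these shifts in the receptor differences was not tested.

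Vldlr (ENSMUSG00000024924, chr19:27193884-27231631, plus strand) encodes the VLDL receptor, which binds triglyceride-rich lipoproteins and is known mainly from heart, muscle and adipose tissue. It was the scarcest of the 9 genes, with raw counts between 11 and 109 per library. Fasted control libraries measured 3.82, 3.74, 3.79 and 6.73 CPM, and fasted LKO libraries 1.35, 2.04, 0.729 and 2.74. Vldlr fell to 37.7% of the control level, with an interval of 23.6 to 60.4% (log2 fold change −1.41, SE 0.32, edgeR adjusted p = 0.00967). The call also held without the high control library, S43, with an adjusted p of 0.0368.

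The refed libraries repeated the separation. Refed control libraries held 3.51, 3.03, 4.02 and 3.94 CPM of Vldlr, and refed LKO libraries 1.38, 0.720, 1.67 and 1.26. No LKO library reached the lowest control library in either state. The refed LKO level was 34.9% of the control level, with an interval of 21.5 to 56.7% (log2 fold change −1.52, SE 0.33, edgeR adjusted p = 0.0191). The refed call was lost without S50 (adjusted p = 0.0508), S53 (0.0567) or S55 (0.0626), which were a control and a pair of LKO libraries. The genotype effects of the 2 states differed by −0.11 (SE 0.46, edgeR adjusted p = 0.924), and refeeding gave no call in control (−0.31, adjusted p = 0.520) or in LKO (−0.43, adjusted p = 0.438). Both refeeding values hung on single libraries, at −0.06 in control without S43 and between −0.12 (without S47) and −0.68 (without S46) in LKO.

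Adipocyte markers were measured beside Vldlr because of its known expression in fat. Their sum ran from 9.81 to 58.1 CPM in fasted control and 0.448 to 9.63 in fasted LKO. After refeeding it ran from 2.50 to 33.1 CPM in control liver and 0.563 to 3.46 CPM in LKO liver. Nearly all of it was Cfd, the complement factor D gene, and of the other 4 markers Adipoq did not pass 0.447 CPM, Plin1 0.497, Lep 0.199 and Retn 0.1997 in any library. All 3 receptors followed the sum over the 16 libraries, with a Pearson r on the log2 scale of 0.87 for Vldlr, 0.80 for Lrp1 and 0.61 for Scarb1. After the group means were taken out r was 0.65, 0.39 and 0.43. The part of this sum in the receptor differences was not tested.

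Among the 4 efflux transporters edgeR made 0 calls in the 5 comparisons, and DESeq2 and limma-voom made 0 as well. Of all tested genes edgeR called 12.2% in the fasted and 3.63% in the refed genotype comparison. It called 15.4% with refeeding in control, 18.1% in LKO and 0.538% for the difference between genotype effects. With 4 genes, 0 calls lie near these shares. At an unadjusted p under 0.05 edgeR had 3, Abca1 and Abcg5 in the fasted and Abcg1 in the refed genotype comparison. Of the 14488 genes by p, Abca1 ranked 3832 and Abcg5 3145 in the fasted comparison. Abcg1 ranked 2565 in the refed one, so such p-values were common. Abca1 (ENSMUSG00000015243, chr4:53030787-53159895, minus strand) encodes the transporter that loads phospholipid and cholesterol onto apolipoprotein A-I. Its promoter is shown because it holds an LXR element, and LXR target genes are counted further on. The window runs from 250 bases before to 50 bases after the annotated start in RefSeq on GRCm38.p6, chr4:53159846-53160145, minus strand, a different build from the coordinates of the deposited tables. Capitals mark an E-box, CACGTG, and the reverse complement of an LXR element of the DR4 type. The pattern searched for that element, on both strands, was written from the known Abca1 site, so its match here was fixed by that choice.

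Abca1 promoter: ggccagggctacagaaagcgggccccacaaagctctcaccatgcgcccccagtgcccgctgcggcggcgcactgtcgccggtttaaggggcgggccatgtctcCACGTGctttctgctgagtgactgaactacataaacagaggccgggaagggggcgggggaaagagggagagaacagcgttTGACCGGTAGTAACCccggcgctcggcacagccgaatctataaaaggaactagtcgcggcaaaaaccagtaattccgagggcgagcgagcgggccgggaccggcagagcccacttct

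The E-box occurred in 7.15% of the 32851 RefSeq promoter windows of the same length. Abca1 libraries measured 79.4, 70.3, 83.6 and 85.6 CPM in fasted control and 59.0, 63.4, 73.8 and 68.3 in fasted LKO. The lowest control library lay below the highest LKO library, so the groups overlapped. The log2 fold change was −0.27 (SE 0.13), at 82.9% of the control level with an interval of 68.8 to 99.9%, and it was not called (edgeR adjusted p = 0.185). Refed control libraries held 79.4, 59.6, 85.4 and 90.2 CPM and refed LKO libraries 80.0, 64.5, 61.3 and 82.4, with a log2 difference of −0.13 (edgeR adjusted p = 0.659).

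Abcg1 (ENSMUSG00000024030, chr17:31276649-31336962, plus strand) encodes a half-transporter that moves cholesterol to HDL and is known best from macrophages. Its group means were 8.84 ± 1.41 CPM for fasted control and 8.48 ± 2.25 for fasted LKO (SD, n = 4 each). Refed control libraries had 9.41 ± 2.17 CPM and refed LKO libraries 7.14 ± 0.535. The genotype differences were −0.07 (SE 0.18, edgeR adjusted p = 0.864) fasted and −0.40 (SE 0.19, adjusted p = 0.261) refed on the log2 scale. The pair of libraries highest in Abcg1, S49 with 12.3 CPM and S47 with 11.6 CPM, were also the highest in the sum of 8 markers of recruited macrophages and monocytes, with 175 and 146 CPM. Most of that sum was Lyz2 and Spp1, with means of 72.0 and 38.7 CPM in fasted control. Spp1 was also listed as a cholangiocyte marker. None of Ccr2, Itgam, Ly6c2, Cx3cr1, Trem2 and Gpnmb passed 7.96 CPM in any library. Over the 16 libraries the r between Abcg1 and that sum was 0.80, and 0.75 after removal of the group means. The Kupffer cell (0.67 and 0.57), endothelial (0.36 and 0.58) and stellate cell and fibroblast (0.50 and 0.51) sums were also positive. The lymphocyte sum had −0.33 and 0.26. The part of these sums in the Abcg1 values was not tested.

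Abcg5 (ENSMUSG00000040505, chr17:84965662-84990439, minus strand) and Abcg8 (ENSMUSG00000024254, chr17:84983730-85007761, plus strand) encode the partners of the sterolin transporter that secretes cholesterol into bile. Their annotated spans overlap by 6710 bases on opposite strands. The use of strand in counting is not given in the sources used here, so reads from the overlap may not be told apart, and the values of both genes carry that limit. The region between their start sites is shown because both genes have an annotated start beside it and their levels moved together. In RefSeq on GRCm38.p6 these starts lie 110 bases apart, Abcg5 at 84683011 and Abcg8 at 84683121, and the sequence is the plus strand of chr17:84682962-84683170, the part common to the windows of both genes. RefSeq also holds a window for another Abcg8 start, chr17:84676052-84676351 on the plus strand, which was not printed and had 0 matches to GATAA. This other start lies inside Abcg5, as the start of the deposited Abcg8 span does. The 6710-base overlap therefore goes with a start of that kind and not with the pair of starts 110 bases apart. These counts do not tell which start was used. Capitals mark the letters GATAA on either strand.

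Abcg5 and Abcg8 shared window: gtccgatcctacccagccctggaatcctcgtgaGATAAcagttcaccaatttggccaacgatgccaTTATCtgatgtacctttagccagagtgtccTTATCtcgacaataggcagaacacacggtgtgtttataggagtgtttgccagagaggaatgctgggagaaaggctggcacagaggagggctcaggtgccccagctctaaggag

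The shared window, of 209 bases, held 3 GATAA matches. Of all promoter windows, each of 300 bases, 25.4% hold at least 1, and the share with 3 was not counted. The 8 windows found for the 6 matched genes (Abca1, Abcg5, Abcg8, Lrp1, Npc2 and Vldlr) held no match on either strand to the LXR half-site AGGTCA, which 16.3% of all windows hold, or to the sterol response element, which 0.0913% hold. Scarb1, Abcg1 and Npc1 were not matched. The Abca1 window, which holds the LXR element shown above, was among the 8 without AGGTCA. A search for that exact half-site therefore cannot tell whether an LXR element is present.

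Abcg5 libraries measured 98.2, 107, 127 and 115 CPM in fasted control and 65.6, 83.4, 95.3 and 58.9 in fasted LKO. Abcg8 libraries measured 105, 143, 152 and 130 CPM in fasted control and 85.7, 89.2, 123 and 64.5 in fasted LKO. For Abcg5 all fasted control libraries lay above all fasted LKO libraries, while for Abcg8 the highest LKO library, S46, lay above the lowest control library, S40. The log2 fold changes were −0.56 for Abcg5 (SE 0.23, interval −1.06 to −0.07, edgeR adjusted p = 0.132) and −0.55 for Abcg8 (SE 0.29, interval −1.15 to 0.06, adjusted p = 0.237). Neither was called, whereas the authors' deposited table gives adjusted p of 0.00922 for Abcg5 and 0.0420 for Abcg8. With edgeR fitted to the fasted libraries alone Abcg5 had an adjusted p of 0.0457.

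The refed control group was the most variable for both genes. Abcg5 measured 66.3, 45.5, 113 and 116 CPM there and 84.8, 66.4, 88 and 94.6 in refed LKO. Abcg8 measured 70.3, 37.1, 123 and 119 CPM in refed control and 79.1, 79.2, 110 and 115 in refed LKO. The LKO libraries lay inside the wide range of the controls, whose lowest library in both genes was S49, the library highest in Kupffer cell markers. With the log2 sum of those 8 markers r was −0.53 for Abcg5, −0.52 for Abcg8 and −0.46 for Abca1. After removal of the group means these were −0.79, −0.70 and −0.77. Kupffer cells were not alone in this. For the sum of endothelial markers r was −0.52, −0.42 and −0.70, and −0.67, −0.61 and −0.72 without the group means. For recruited macrophages and monocytes it was −0.41, −0.45 and −0.29, and −0.62, −0.62 and −0.52. The adipocyte sum had 0.35, 0.21 and 0.48 over the 16 libraries. All 8 Kupffer cell markers were below 0 in the refed genotype comparison, with 0 called by edgeR and 5 at an unadjusted p under 0.05. The part of these sums in the transporter values was not tested. The refed genotype differences were −0.03 for Abcg5 (interval −0.52 to 0.47, edgeR adjusted p = 0.971) and 0.13 for Abcg8 (interval −0.48 to 0.74, adjusted p = 0.859). The Abcg8 to Abcg5 count ratio ran from 0.815 in S49 to 1.34 in S41. Over the 16 libraries the pair had r = 0.94 and a Spearman rho of 0.91 on log2 CPM, the highest r of the 36 pairs among the 9 genes. It was r = 0.90 over 14 libraries when S47 and S49, the farthest from the Abcg5 median, were left out. The pair shares libraries and, in the overlap, possibly reads.

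**Figure D3:**
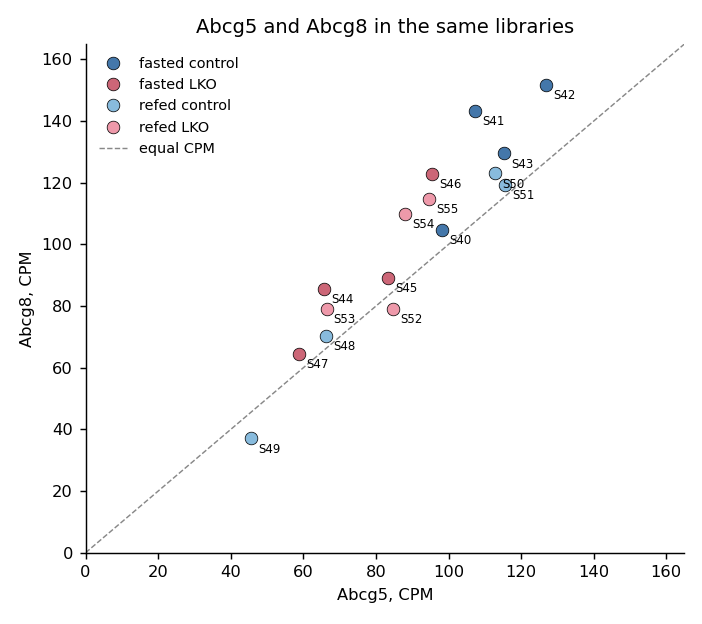
Abcg8 against Abcg5 in CPM, with one point for each of the 16 libraries by group and a dashed line at equal CPM. The points rise together, with S49 of the refed control at the lower end and the fasted control libraries toward the upper end.

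Npc1 (ENSMUSG00000024413, chr18:12322749-12369457, minus strand) encodes the membrane protein that exports cholesterol from late endosomes and lysosomes. It was the only one of the 9 genes that changed with refeeding in LKO liver. One called lower gene of 9 stands beside 8.78% of all genes called lower and 18.1% called in either direction, and the groups of 1 of 9 genes did not overlap, against 20.6% of all genes. Fasted LKO libraries measured 81.9, 77.7, 129.9 and 73.7 CPM and refed LKO libraries 45.95, 50.4, 62.7 and 60.9. The fasted libraries all lay above the refed ones, and S46 lay far above its group. Npc1 fell to 60.6% of the fasted LKO level, with an interval of 47.1 to 77.9% (log2 fold change −0.72, SE 0.17, edgeR adjusted p = 0.00777). Without S46 the call remained, with an adjusted p of 0.0225.

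In control liver Npc1 measured 74.5, 77.1, 78.3 and 69.8 CPM fasted and 53.5, 42.8, 67.8 and 64.1 refed. Those groups did not overlap either, but the difference (−0.39, SE 0.17) was not called (edgeR adjusted p = 0.131), whereas the authors' deposited table gives an adjusted p of 0.0371. The genotype differences of Npc1 were 0.28 fasted (SE 0.17, edgeR adjusted p = 0.322) and −0.05 refed (adjusted p = 0.911). Rmc1 overlaps Npc1 on the opposite strand, with 5650 counts over the 16 libraries against 20089 for Npc1. How reads in that overlap were assigned is not given in the sources used here.

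Npc2 (ENSMUSG00000021242, chr12:84801336-84819926, minus strand) encodes the soluble lysosomal protein that hands cholesterol to NPC1. Its control libraries measured 89.3, 79.3, 80.2 and 82.2 CPM fasted and 66.9, 75.3, 62.3 and 63.6 refed. All fasted control libraries lay above all refed ones, with a log2 difference of −0.30 (SE 0.10) that missed the threshold (edgeR adjusted p = 0.0572), against an adjusted p of 0.0158 in the authors' deposited table. It passed with DESeq2 (adjusted p = 0.0381), with the control libraries fitted alone (0.0381), with a mean of at least 5 CPM (0.0455) and without S49 (0.0408). Genotype left Npc2 without a call, at −0.13 fasted (edgeR adjusted p = 0.483) and 0.00 refed (interval −0.22 to 0.22, adjusted p = 0.996). The LKO libraries held 79.0, 72.5, 62.7 and 89.5 CPM fasted and 59.6, 72.6, 73.4 and 63.0 refed, with overlap. The sum of recruited macrophage and monocyte markers was mostly Lyz2 and Spp1, as above. With that sum Npc2 had an r of 0.67 over the 16 libraries, and 0.84 after removal of the group means. The endothelial (0.52 and 0.63), Kupffer cell (0.46 and 0.54) and stellate cell and fibroblast (0.42 and 0.52) sums were also positive. The hepatocyte sum had −0.08 and 0.05. The part of these sums in the Npc2 values was not tested.

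Refeeding in control liver thus gave 2 lower calls among the 9 genes by edgeR, Scarb1 and Lrp1, beside 7.65% of all tested genes called lower and 15.4% in either direction. DESeq2 called 3, with Npc2 as the third. The fasted and refed control groups did not overlap for 4 of 9 genes (Scarb1, Lrp1, Npc1 and Npc2), against 20.4% of all genes. The median refeeding difference of the 9 genes was −0.39 in control and −0.11 in LKO, and those of all genes were 0.01 and −0.02. The fasted control libraries enter both the fasted genotype comparison and this one, so a high value there lowers both differences. The genotype effect did not differ between feeding states for any of the 9 genes by edgeR (0 calls, against 0.538% of all genes). At an unadjusted p under 0.05 there were 2, Scarb1 and Lrp1. Many genes passed that mark, as Lrp2 with an unadjusted edgeR p of 0.0292 ranked 1769 of 14488. DESeq2 called 1, Scarb1, beside 458 of all tested genes, and limma-voom 0, beside 80.

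**Figure D4:**
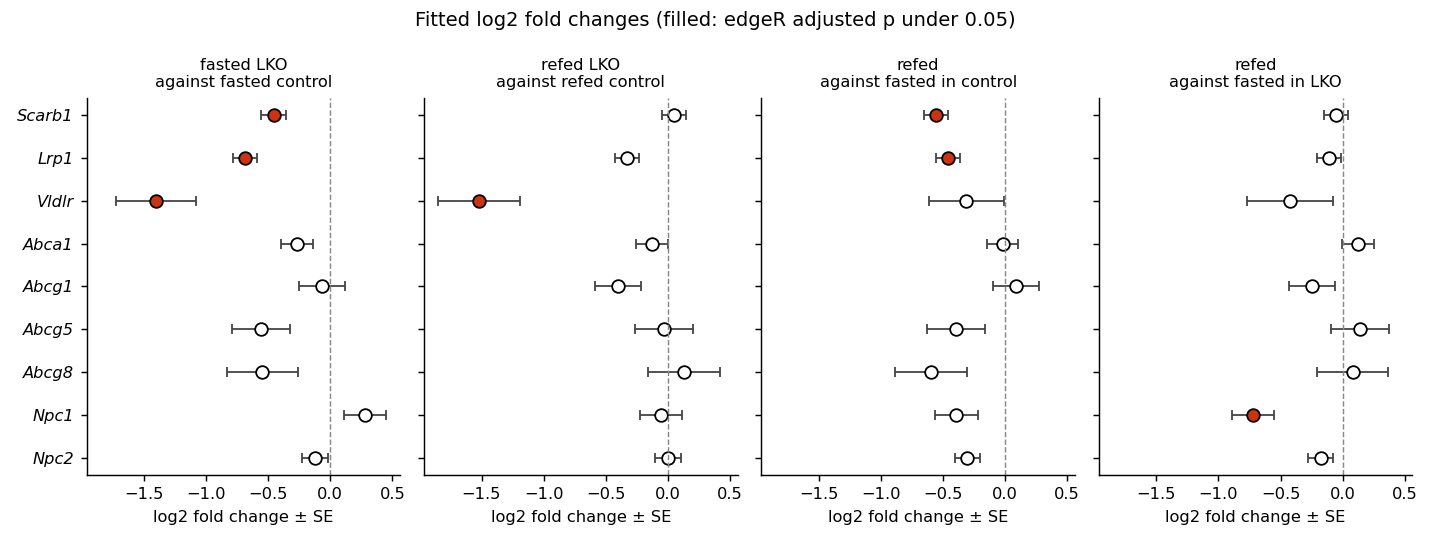
Log2 fold change of each of the 9 genes in the 4 group comparisons, with bars for the standard error (SE) from edgeR and filled points for genes called at an adjusted p under 0.05. Lower calls lie among the uptake receptors in 3 comparisons, and Npc1 is called in the comparison of refed with fasted LKO.

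Genes of the same pathways were counted from lists by their edgeR calls, to be read beside the shares of all tested genes. Those called higher were 5.75% in the fasted and 2.28% in the refed genotype comparison, 7.79% with refeeding in control and 9.28% with refeeding in LKO. Of the differences between genotype effects 0.311% were called higher and 0.228% lower. Among other endocytic lipoprotein receptors and their partners, Lrp2, the megalin gene, was higher in fasted LKO liver, with a log2 fold change of 1.41. It lost that call without any 1 of S41 to S46 (highest edgeR adjusted p = 0.144), with limma-voom and with the fasted libraries fitted alone. In refed LKO liver Lrp2 was again higher, at 5.97 ± 1.44 CPM against 0.875 ± 0.299 in refed control (SD, n = 4 each), a log2 fold change of 2.80 (edgeR adjusted p = 8.61e-04). Refeeding in LKO raised Lrp2 by 2.12 on the log2 scale and lowered Lrp6 (−0.48) and Lrp10 (−0.36). Refeeding in control lowered Lrp10 (−0.47).

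Of 9 other scavenger receptors and SR-BI adaptor genes, 8 were tested and 0 were called with genotype in either state. By edgeR at an unadjusted p under 0.05 there was 1 in the fasted and 0 in the refed comparison, and DESeq2 and limma-voom called 0. Refeeding gave 2 higher and 0 lower calls in each genotype. Pdzk1, which encodes the adaptor that holds SR-BI at the hepatocyte membrane, rose with refeeding in both genotypes, by 0.51 in control and 0.58 in LKO on the log2 scale. The control call was lost without S40, S42, S43, S48 or S49 (highest edgeR adjusted p = 0.0926).

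All 12 LXR receptors and LXR targets other than the 9 genes were tested. In fasted LKO 1 was higher, Lpl (0.66), which encodes lipoprotein lipase, and 2 were lower, Srebf1 (−2.25) and Apoe (−0.35). Srebf1, the gene of the lipogenic transcription factor SREBP-1, fell from 181 ± 27.2 to 38.0 ± 5.31 CPM (edgeR adjusted p = 2.38e-04), and its call held in every alternative run. Lpl lost its call without S41, S42, S43, S44 or S46 (highest adjusted p = 0.150). The Lpl call was also lost with limma-voom and in a fit of the fasted libraries alone. Apoe lost its call without S40, S42, S43, S44 or S46 and with scaling by library totals alone. Its highest adjusted p was 0.121, in a fit of the fasted libraries alone. Mylip, an LXR target whose product marks the VLDL receptor for degradation, was not called, with a log2 difference of −0.07 fasted and −0.07 refed (edgeR adjusted p = 0.849 and 0.881). In the refed genotype comparison 0 of 12 were called, with 1 at an unadjusted p under 0.05 by edgeR and 0 by DESeq2 or limma-voom.

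In lysosomal and other intracellular sterol handling 19 of 21 genes were tested. In fasted LKO 3 rose (Lipa, Nceh1 and Stard5) and 1 fell (Osbpl5). Lipa encodes lysosomal acid lipase, which frees the cholesterol that NPC2 and NPC1 carry, and it rose from 155 ± 10.1 to 301 ± 62.0 CPM (log2 fold change 0.96, edgeR adjusted p = 2.38e-04). Nceh1, a neutral cholesteryl ester hydrolase gene, rose from 28.3 ± 1.21 to 69.2 ± 22.4 CPM (1.29, adjusted p = 0.00583). Osbpl5, of the oxysterol-binding protein family, fell from 8.39 ± 2.66 to 2.60 ± 0.539 CPM (−1.68, adjusted p = 5.95e-04). The Stard5 call (0.36) was lost without S41, S42 or S46 (highest adjusted p = 0.0679) and with the fasted libraries fitted alone. After refeeding Lipa was at 206 ± 7.5 CPM in control and 208 ± 14.1 in LKO, and its genotype effect differed between the feeding states by −0.94 (SE 0.17, edgeR adjusted p = 0.0261). That call was lost without S40, S48, S50 or S55, with a highest adjusted p of 0.0661. In the refed genotype comparison Tmem97 was higher (0.73) and Osbpl5 lower (−0.84). The Osbpl5 call was lost without S48, S49, S50, S51, S53, S54 or S55 (highest adjusted p = 0.136). It was also lost with scaling by library totals alone and with the refed libraries fitted alone.

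Of 11 other ABCA and ABCG transporter genes 10 were tested, and in fasted LKO edgeR called 3, all lower: Abca2 (−0.63), Abca3 (−0.68) and Abca8a (−1.21). DESeq2 called 4, these 3 and Abcg2, which was higher in LKO (0.40, edgeR adjusted p = 0.0631). Abca8a went from 39.0 ± 4.76 to 16.9 ± 1.34 CPM (edgeR adjusted p = 2.38e-04), with the limit that Abca8a, Abca8b and Abca9 are close relatives between which reads can be split. Abca3 lost its call without S41, S42, S43, S44 or S46 (highest adjusted p = 0.0967). The Abca3 call was also lost with scaling by library totals alone and with the fasted libraries fitted alone. In the refed comparison 0 of 10 were called by edgeR, 3 had an unadjusted p under 0.05, DESeq2 called 1 and limma-voom 0. Among 7 genes of the HDL particle Lipc, the hepatic lipase gene, was the only one edgeR called with genotype, and it fell in both states. DESeq2 called 2 in each state, Lipc with Lcat in the fasted and Lipc with Apoa1 in the refed comparison. It measured 138 ± 12.2 CPM in fasted control and 91.7 ± 14.2 in fasted LKO (−0.59, edgeR adjusted p = 0.00362), and 134 ± 9.63 in refed control and 81.2 ± 10.1 in refed LKO (−0.73, adjusted p = 0.00276).

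The genes whose log2 CPM followed each of the 9 most closely over the 16 libraries are given as a description, since all values share the libraries and the group differences. Scarb1 was closest to Plbd2 (r = 0.90), Ubl7 and Tmem106c. Lrp1 was closest to Plg (0.92), the plasminogen gene, then St6galnac6 and Man2b1. For Vldlr they were Gckr (0.92), Rcan2 and C4b. Abca1 followed Lrig1 (0.84), Ston2 and Cyp2a12, and Abcg1 followed Sirpa (0.86), Fcer1g and Lgmn. Abcg5 was nearest to Ptpn3 (0.81), Slc41a1 and Man2a2 outside the 9 genes, and Abcg8 to Synj2 (0.83), Myo18a and Vps8. Npc1 lay nearest to Pik3c3 (0.94), Rnf40 and Usp19, and Npc2 to Capg (0.89), Unc93b1 and Jund.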

How the data were processed

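The authors deposited 4 tables, 1 for each comparison of 2 groups, with raw read counts per gene for 8 libraries each. Reads were aligned with HISAT2 2.0.5 to mm39, per the submitters' processing notes, and poly-A RNA was made into dUTP libraries, per the labels' protocols. The counting tool, its use of strand and the annotation are not given in the sources used here. The authors' log2 fold changes, adjusted p-values, gene coordinates and gene lengths come from the deposited tables, with fold changes given here as LKO against control or refed against fasted. Columns S40 to S55 took their group from the headings of the tables that hold them, and they carry no replicate number. Joining by gene identifier gave 25803 genes. Each library occurs in a pair of tables, whose counts differed for 0 genes, and a gene missing from both tables of a library was set to 0 there, which touched 3148 genes and none of the 9. No use was made of 64 further columns with values per library.

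Genes passing filterByExpr (14488) were scaled with TMM (factors 0.941 to 1.07) and fitted in edgeR 4.0.16 (R 4.3.3) by glmQLFit over all 16 libraries, with group (4 levels) as the factor and no block. The common biological coefficient of variation was 0.185. Contrasts were tested by glmQLFTest with two-sided p-values, and the SE is the fold change over the square root of F. CPM are counts per M (mega) counts of the TMM-scaled total. The script was tested on simulated data with known fold changes. Alternatives were DESeq2 1.42.0, limma-voom (limma 3.58.1), other scalings, other filters, a fit of the contrast's groups alone and each library left out. Promoters came from RefSeq (GRCm38.p6). The 9 genes, the lists and the tests were chosen with earlier results of these data known. The text names Cpt1a, the 9 genes, list members picked after their values were seen, markers, overlapping genes, and, for each of the 9, the 3 tested genes with a mean of at least 5 CPM of highest r. Some genes of the list of other endocytic receptors are not reported here, so no count over that list is given.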

Additional observations from a re-analysis of the deposited data

Results flagged for a closer look

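Of 36 groups of 4 libraries (9 genes in 4 groups), 2 held a library whose gap to the others passed Dixon's 95% limit, which chance gives in about 1 group in 20. Vldlr measured 6.733 CPM in S43 of the fasted control, and the other 3 libraries lay between 3.735 and 3.823 CPM. Without S43 the fasted genotype difference of Vldlr was −1.15 on the log2 scale (edgeR adjusted p = 0.0368), against −1.41 with it. Npc1 measured 129.9 CPM in S46 of the fasted LKO, and the other 3 libraries between 73.72 and 81.91 CPM. Without S46 its fasted genotype difference was 0.05 (edgeR adjusted p = 0.865), against 0.28 with it.

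The genotype effect on Lipa, the lysosomal acid lipase gene, differed between the feeding states by a test of that difference, −0.9446 on the log2 scale (refed minus fasted). It was 0.96 in the fasted and 0.01 in the refed comparison. The call was lost without S40, S48, S50 or S55, with a highest edgeR adjusted p of 0.0661.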

How the results depend on the processing

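No paired analysis was possible because the count columns carry no replicate number. The 45 differences of the 9 genes were recomputed into 778 alternative values: 739 kept direction and side of the threshold, 3 were no longer called, 8 were newly called and 28, in 11 differences, changed sign. In the refed genotype comparison the number of the 9 genes called was 1 and became 2 with DESeq2, 2 with the 2 groups alone, 0 with a mean of at least 5 CPM, which left Vldlr out, and 0 to 1 without 1 library. For refeeding in control it was 2, and 3 with DESeq2, with the 2 groups alone, with a mean of at least 5 CPM and without S49. For the difference between the genotype effects it was 0, and 1 with DESeq2. Over all genes that difference gave 78 calls, against 458 with DESeq2, 197 with a mean of at least 5 CPM and 8 (without S48) to 282 (without S49), and the refed genotype comparison 526, against 924 with DESeq2.

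No sign change was in a called difference. With library totals alone Abcg1 fasted was 0.0059, Abcg5 refed 0.0187 and Abca1 with refeeding in control 0.0205. With limma-voom Abcg5 refed was 0.0645 and Npc2 refed −0.0002. Without 1 library each, Abcg1 fasted ran from −0.2487 to 0.0508. The refed genotype differences ran from −0.2355 to 0.1545 (Abcg5), −0.0439 to 0.0628 (Npc2), −0.0046 to 0.0953 (Scarb1), −0.1222 to 0.3437 (Abcg8) and −0.1693 to 0.0412 (Npc1). With refeeding they ran in control from −0.0904 to 0.0920 (Abca1) and −0.0716 to 0.1929 (Abcg1), and in LKO from −0.1059 to 0.0096 (Scarb1) and −0.0501 to 0.2640 (Abcg8). The Vldlr difference between states ran from −0.3660 to 0.1982. The cause was not tested. Of 53 called differences of list genes, 741 of 850 alternative values kept their call and 109 lost it. Depth limits Vldlr most, with 11 counts in its lowest library.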
